A study of Mus musculus with 6 samples.

Results

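The receptors for interleukin-12 (IL-12) and interleukin-18 (IL-18) were examined in antiviral CD4+ T cells sorted by their amount of surface CD25, through the 4 genes of their chains, Il12rb1, Il12rb2, Il18r1 and Il18rap, and through Hopx, a factor known for the survival of Th1 effector cells. These 5 genes were chosen by name with earlier results of these data known, so the choice was not independent of the data. All 5 have a row among the 15445 genes of the counts table, matched by Ensembl identifier. RNA was sequenced from splenic CD4+ T cells of C57BL/6 mice on day 5 after infection with lymphocytic choriomeningitis virus (LCMV). All libraries came from T cells with 1 transgenic receptor (a monoclonal population), stained for CD4, Thy1.1 (a congenic marker) and CD25 (the alpha subunit of the IL-2 receptor), and sorted into CD25-high cells (3 libraries, numbered 1 to 3) and CD25-low cells (3 libraries, numbered 1 to 3). Infection, strain and transgene were shared by both groups, and no uninfected or unsorted group is among the samples analysed here. The labels give neither the age of the mice nor the name of the transgenic receptor. Whether libraries came from separate animals is not stated, and p-values therefore cover only the spread among these libraries, some of which may be technical.

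IL-12 is made by antigen-presenting cells and binds a receptor of 2 chains. The beta 1 chain (Il12rb1) is shared with the receptor for IL-23 and engages the kinase Tyk2, while the beta 2 chain (Il12rb2) is specific for IL-12, engages Jak2 and recruits STAT4, the factor that drives Th1 differentiation together with T-bet. IL-18 binds its own alpha chain (Il18r1), and the accessory chain (Il18rap) then joins so that the adaptor MyD88 and the IRAK kinases can be recruited; with IL-12 it raises interferon gamma production by Th1 cells. Hopx is a small homeodomain protein that does not bind DNA and is induced in Th1 cells downstream of T-bet.

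Upstream sequences of the members are given for orientation, with the gene whose transcript rose first and the paired IL-18 receptor genes after it. They end at the base before the RefSeq start site (GRCm38.p6, the assembly of mm10), are written on the strand of the gene, and matched 4 of the 5 members, all but Il12rb1. Capitals mark a match to any of 4 motifs searched on both strands within 250 bases before the start: the STAT motif TTCNNNGAA, the T-box half-site TCACACCT, the AP-1 motif TGANTCA and the RUNX motif TGTGGT. Of 27025 promoters of that length, 7.2%, 1.1%, 6.9% and 14.2% held these motifs.
Il12rb2 (chr6:67376189-67376438, minus strand): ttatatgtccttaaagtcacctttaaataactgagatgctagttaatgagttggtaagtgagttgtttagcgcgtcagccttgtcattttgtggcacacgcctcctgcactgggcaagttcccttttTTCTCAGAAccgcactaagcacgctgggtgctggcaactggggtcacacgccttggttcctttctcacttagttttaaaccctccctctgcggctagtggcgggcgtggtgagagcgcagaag
Il18r1 (chr1:40465416-40465551, plus strand): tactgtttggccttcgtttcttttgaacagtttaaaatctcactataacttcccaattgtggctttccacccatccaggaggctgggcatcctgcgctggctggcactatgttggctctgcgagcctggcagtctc
Il18rap (chr1:40515112-40515361, plus strand): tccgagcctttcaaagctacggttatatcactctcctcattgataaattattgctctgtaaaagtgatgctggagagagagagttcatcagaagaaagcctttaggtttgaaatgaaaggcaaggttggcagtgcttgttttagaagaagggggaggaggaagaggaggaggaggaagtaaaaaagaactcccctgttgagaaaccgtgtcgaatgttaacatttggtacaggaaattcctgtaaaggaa
Hopx (chr5:77115124-77115373, minus strand): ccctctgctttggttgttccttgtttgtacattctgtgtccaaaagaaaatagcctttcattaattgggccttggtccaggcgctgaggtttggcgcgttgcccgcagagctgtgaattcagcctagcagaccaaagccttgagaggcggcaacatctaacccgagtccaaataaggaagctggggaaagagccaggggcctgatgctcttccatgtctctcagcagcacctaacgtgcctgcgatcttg

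The only match in these windows was a STAT motif in Il12rb2, TTCTCAGAA, at bases -123 to -115, counted back from -1 at the base before the start. A match of letters is not a binding site. The Il18r1 sequence is shorter, at 136 bases, because the last exon of Il1rl1 reaches to that point and was left out. Il18r1 (ENSMUSG00000026070, 40465552 to 40500854) and Il18rap (ENSMUSG00000026068, 40515362 to 40551705) are neighbours on the plus strand of chromosome 1. Il12rb2 (ENSMUSG00000018341) spans 67291318 to 67376188 on chromosome 6 (minus strand), Il12rb1 (ENSMUSG00000000791) 70808449 to 70821424 on chromosome 8 (plus strand) and Hopx (ENSMUSG00000059325) 77086988 to 77115121 on chromosome 5 (minus strand).

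Libraries held 16787233 to 23567066 counts, and Il2ra, the gene of CD25, was at 432 to 1540 CPM (counts scaled to a common total with TMM library factors) in the CD25-high group and at 20.7 to 35.7 CPM in the CD25-low group. Cd3e, a chain of the T cell receptor complex, was at 1180 to 1680 CPM in the 6 libraries. Of the 12 listed T cell genes, Il2ra included, 5 were lower in every CD25-high than in every CD25-low library, and 3 of these fell with the replicate number as a block: Cd3d (log2 fold change -1.01, edgeR adjusted p 0.0134), Cd3g (-0.86, 0.0135) and Trbc1 (-0.89, 0.00579). Over all tested genes, 1239 of 12987 were lower without overlap, and 2.90% were called lower with the block. Natural killer cells also carry these receptors, so markers of other cells were checked. Of 17 listed genes of natural killer and innate lymphoid cells, 8 had no row in the table (Ncr1 among them), and the list summed to 159 to 249 CPM among the CD25-high and 101 to 286 CPM among the CD25-low libraries, most of it from Rora (84.3 to 241 CPM) and Gata3 (5.27 to 30.7 CPM), which T cells express too. Without these 2 genes the list reached at most 35.6 CPM (CD25-high) and 23.4 CPM (CD25-low). With the block 1 of its 7 tested genes, Klrk1, rose, against 1.73% of all tested genes called higher. Of the CD8 T cell genes only Cd8b1 had a row, at 3.51 to 5.33 CPM (CD25-high) and 1.59 to 2.32 CPM (CD25-low). Among B cell genes Ighm, which fell in CD25-high cells (edgeR adjusted p 0.0273), was at 278 to 892 CPM, with a list sum of 292 to 479 CPM (CD25-high) and 783 to 912 CPM (CD25-low), and Igkc was at 0.875 to 23.9 CPM, while Cd79a and Ms4a1 had no row. The myeloid list summed to 32.2 to 105 CPM (CD25-high) and 23.6 to 56.4 CPM (CD25-low; Itgam, which rose with the block, 5.03 to 77.2 CPM, Cst3 5.27 to 15.6 CPM), and erythroid and platelet genes to 4.10 CPM at most (Alas2 1.82 to 3.34 CPM, Ppbp 0 to 0.766 CPM). The part of these other cell types in the results was not tested.

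Il12rb2, the signalling chain specific for IL-12, was the only one of the 5 genes that rose in CD25-high cells. It stood at 546, 360 and 315 CPM in the CD25-high libraries numbered 1, 2 and 3, against 152, 189 and 165 CPM in their same-numbered CD25-low libraries. The groups did not overlap: the lowest CD25-high library lay above the highest CD25-low library, and CD25-high library 1 was well above the other two. The means were 407 ± 123 and 169 ± 18.9 CPM (SD, n = 3 each), a 2.41-fold difference (95% interval 1.68 to 3.46) or a log2 fold change of 1.27 ± 0.24 (SE), with an edgeR adjusted p of 0.0443 over all 12987 tested genes. In the same test 0.655% of all tested genes were called in either direction and 0.154% were called higher, and 7.41% of tested genes had every CD25-high library above every CD25-low library (16.9% did not overlap in either direction). In bulk RNA, more cells that express the gene and more RNA per cell cannot be told apart.

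Libraries of the same number were taken as pairs, which the labels do not state and the data bear out only in part. Deviations from group means correlated at 0.34, 0.19 and 0.16 within numbers 1, 2 and 3. CD25-high 2 with CD25-low 3 also reached 0.13, so numbers 2 and 3 are hardly separated. Fitted with the replicate number as a block under this assumption, Il12rb2 rose by 1.23 ± 0.19 on the log2 scale (SE; edgeR adjusted p 0.0019). With that block 4.63% of tested genes were called. Between same-numbered libraries the log2 difference was 1.84 for number 1 and 0.93 for each of the other two, so the rise was present in every pair and largest in the first. The call without the block remained only without CD25-high library 1 (log2 fold change 1.0, adjusted p 0.0459); the adjusted p was 0.0991 and 0.103 without CD25-high number 2 or 3, and 0.141 to 0.177 without one of the CD25-low libraries. Il12rb2 shares 1519 exonic bases, 40.04% of its exonic length, with Serbp1, a gene on the opposite strand with a larger count in every library, and the strand setting of the counts is not given. Serbp1 itself had 2450, 1480 and 1560 CPM (CD25-high, in order of number) against 1990, 1540 and 1130 CPM (CD25-low), with overlap (log2 fold change 0.24 ± 0.26, adjusted p 0.808). The Il12rb2 count was 20.2% to 24.4% of the Serbp1 count in the CD25-high group and 7.65% to 14.6% in the CD25-low group. The part of Serbp1 reads in the Il12rb2 count was not tested.

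Il12rb1, the chain shared by the IL-12 and IL-23 receptors, did not pass the test. CD25-high libraries 1, 2 and 3 had 26.1, 25.9 and 34.3 CPM, and the CD25-low ones 17.7, 16.8 and 26.8 CPM. Only CD25-low library 3 reached into the range of the CD25-high libraries. Its log2 fold change was 0.49 ± 0.28 (SE, 95% interval -0.12 to 1.10), with an edgeR adjusted p of 0.56, and 0.51 ± 0.23 with the block (95% interval 0.01 to 1.01, adjusted p 0.262). The log2 differences within pairs 1, 2 and 3 were 0.56, 0.62 and 0.36, all positive and smaller than those of Il12rb2. The interval without the block includes no difference and reaches a 2.15-fold one, and that with the block lies just above 0.

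**Figure D1:**
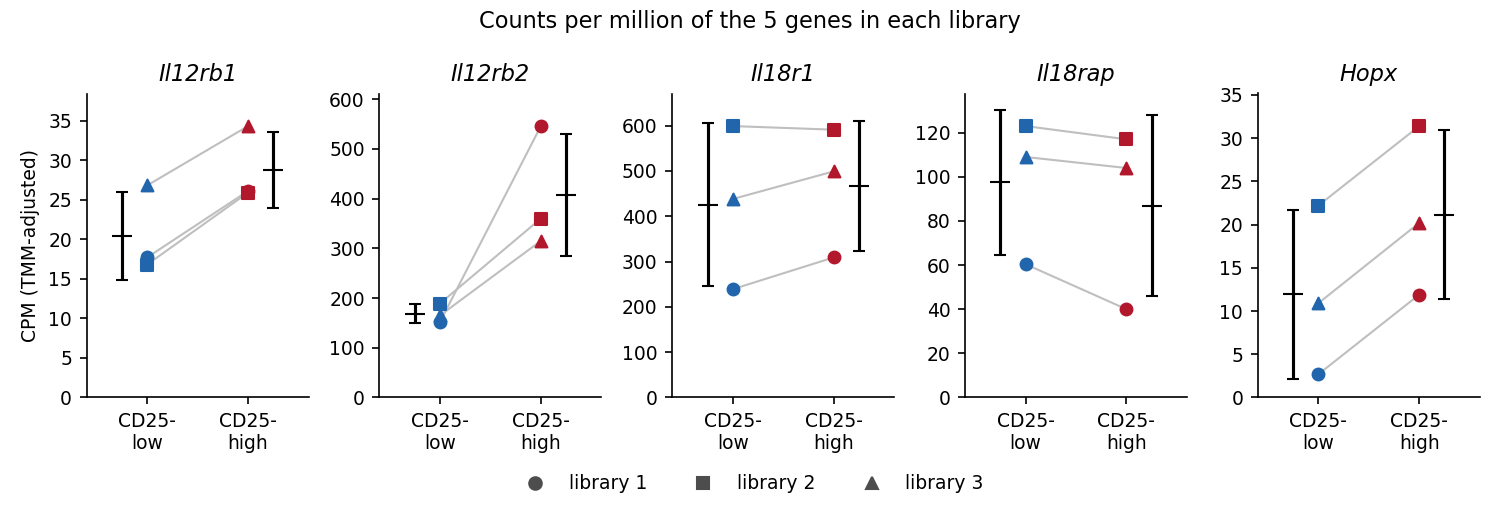
CPM (y axes, TMM-adjusted, each from 0) of the 5 genes in CD25-low (blue) and CD25-high (red) libraries, with grey lines joining same-numbered libraries, a marker shape for each number, and black bars for mean ± SD (n = 3). Il12rb2 is the panel in which the groups do not overlap, with 315 to 546 CPM against 152 to 189 CPM; in the panels of Il18r1, Il18rap and Hopx library 1 (circles) is lowest in both groups.

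The IL-18 receptor chains were not called different between the groups, and their levels followed the library number. Il18r1, the chain that binds IL-18, was at 309, 591 and 499 CPM in the CD25-high libraries numbered 1, 2 and 3, against 239, 599 and 438 CPM in the CD25-low ones. The groups overlapped almost wholly, and library 1 was lowest in each. The log2 fold change was 0.13 ± 0.33 (SE, 95% interval -0.61 to 0.87, edgeR adjusted p 0.924), and with the block 0.18 ± 0.15 (95% interval -0.13 to 0.49, adjusted p 0.58). Differences within pairs 1, 2 and 3 were 0.37, -0.02 and 0.19 on the log2 scale. Both intervals exclude a 2-fold difference in either direction. Leaving out number 2 of CD25-high or number 1 of CD25-low turned the sign (log2 fold change -0.07 and -0.15).

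Il18rap, the accessory chain needed for signalling, was at 40.0, 117 and 104 CPM in the CD25-high libraries numbered 1, 2 and 3, against 60.4, 123 and 109 CPM in the CD25-low ones. Again library 1 was lowest in each group, and each CD25-low library was above its same-numbered CD25-high library. The log2 fold change was -0.16 ± 0.39 (SE, 95% interval -1.02 to 0.69, edgeR adjusted p 0.92), and with the block -0.24 ± 0.18 (95% interval -0.62 to 0.14, adjusted p 0.527). Within pairs the log2 differences were -0.60, -0.07 and -0.06, so that nearly all of it came from pair 1. Leaving out CD25-high library 1 (0.18) or number 2 of the CD25-low libraries (0.04) turned the sign.

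Hopx was higher in the CD25-high library of every pair, but it passed in neither fit. CD25-high libraries 1, 2 and 3 had 11.9, 31.4 and 20.2 CPM, and the CD25-low ones 2.68, 22.2 and 10.9 CPM. The groups overlapped, and the order of the numbers, with 2 above 3 above 1, was that of Il18r1 and Il18rap. The log2 fold change was 0.82 ± 0.61 (SE, 95% interval -0.54 to 2.18, edgeR adjusted p 0.682), and with the block 1.13 ± 0.34 (95% interval 0.40 to 1.86, adjusted p 0.0804). Within pairs 1, 2 and 3 the log2 differences were 2.15, 0.50 and 0.89, and that of pair 1 rests on 49 counts in CD25-low library 1. Hopx shares 412 exonic bases, 27.18% of its exonic length, with the antisense gene Hopxos, whose count was 0% to 11.5% of the Hopx count in the 6 libraries.

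**Figure D2:**
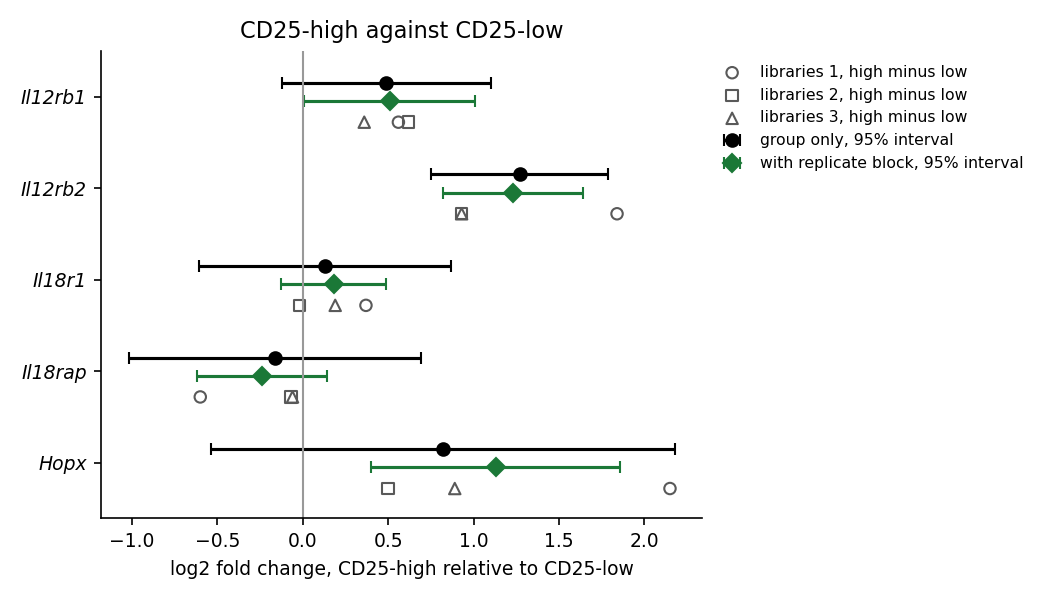
Log2 fold changes of CD25-high relative to CD25-low cells (x axis) for the 5 genes: black circles from the fit with the group alone and green diamonds from the fit with the replicate block, each with its 95% interval, and open symbols for the differences between same-numbered libraries. Il12rb2 is the only gene with both intervals and all 3 pairs well above 0, Il18r1 and Il18rap lie around 0, and the block narrows the interval of Hopx from -0.54 to 2.18 down to 0.40 to 1.86.

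Differences between library numbers were themselves tested for the 5 genes, in the fit with the block and after their values had been seen. Il18r1, Il18rap and Hopx differed by number (edgeR adjusted p 0.0101, 0.0121 and 0.0307), against 3.63% of all tested genes. Relative to number 1, with the group as a term, Il18r1 was higher by 1.13 and 0.78, Il18rap by 1.28 and 1.11, and Hopx by 2.15 and 1.29 on the log2 scale in numbers 2 and 3. Il12rb1 (adjusted p 0.445) and Il12rb2 (0.637) did not pass this test, with log2 differences of -0.04 and 0.50 and of -0.17 and -0.36. What a number stands for (an animal, a day or a batch) is not given in the labels. Within numbers, the log2 differences between CD25-high and CD25-low libraries given above were 0.60 or less in size for Il18r1 and Il18rap.

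Levels per exonic length (RPKM, from the TMM-adjusted CPM) put Il12rb2 and Il18r1 far above the other members. The exonic bases shared with Serbp1 enter the Il12rb2 level and percentile, and the part of Serbp1 reads was not tested. In CD25-high cells the mean was 107 RPKM for Il12rb2, 96.8 for Il18r1, 14.0 for Hopx, 12.9 for Il18rap and 7.0 for Il12rb1. In CD25-low cells it was 88.3 RPKM for Il18r1, 44.5 for Il12rb2, 14.4 for Il18rap, 7.88 for Hopx and 4.98 for Il12rb1. In both groups the libraries of Il12rb2 and Il18r1 overlapped (in CD25-low cells only at 49.9 against 49.5 RPKM), as did those of Hopx, Il18rap and, in part, Il12rb1, while the lowest of the first pair, 64.0 RPKM in CD25-high and 40.1 RPKM in CD25-low cells, lay above the highest of the others, 20.7 and 18.3 RPKM. Among 12785 tested genes with an annotated length, Il12rb2 stood at percentile 98.5 in CD25-high and 95.5 in CD25-low cells, Il18r1 at 98.3 and 98.2, Il18rap at 78.9 and 81.0, Hopx at 80.4 and 67.0, and Il12rb1 at 64.1 and 55.1.

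In both receptors 1 chain had a much higher transcript level than its partner. Il12rb2 exceeded Il12rb1 per exonic length 22.7-fold, 15.1-fold and 9.93-fold in the CD25-high libraries numbered 1, 2 and 3, and 9.29-fold, 12.2-fold and 6.67-fold in the CD25-low ones. The ratio was higher in the CD25-high library of each pair, with log2 differences of 1.29, 0.31 and 0.57, but the groups overlapped. The mean log2 ratio was 3.91 ± 0.60 in CD25-high and 3.19 ± 0.44 in CD25-low cells (SD, n = 3 each), a difference of 0.72 (exact two-sided permutation test p = 0.2, where 0.1 is the smallest p that 3 against 3 libraries allow). A larger rise of Il12rb2 than of Il12rb1 was thus not shown by this test. The exonic bases shared with Serbp1 enter these ratios.

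Il18rap was the scarcer IL-18 receptor chain, at 0.0924, 0.141 and 0.149 of the Il18r1 level per exonic length in the CD25-high libraries numbered 1, 2 and 3, and at 0.181, 0.147 and 0.177 in the CD25-low ones. The mean log2 ratio was -3.00 ± 0.38 in CD25-high and -2.58 ± 0.17 in CD25-low cells (SD, n = 3 each), a difference of -0.42 (exact two-sided permutation test p = 0.2). Every pair was lower in CD25-high cells, by -0.97, -0.05 and -0.25, and the ranges of the groups overlapped only between 0.147 and 0.149. Pairing the libraries gave p = 0.25 for each of these 2 ratios by an exact sign-flip test, the smallest p that 3 pairs allow.

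**Figure D3:**
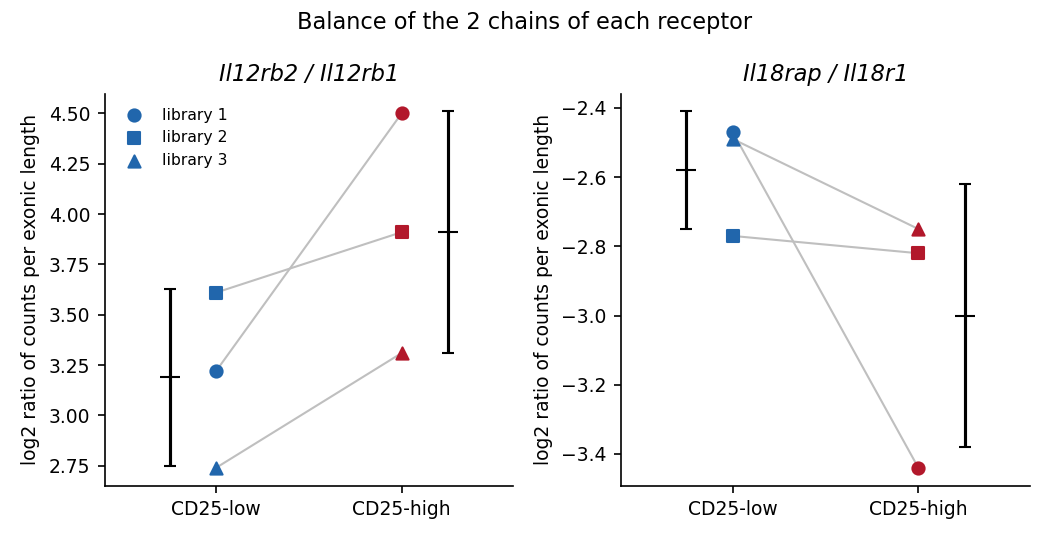
Log2 ratio of counts per exonic length (y axes, not starting at 0) of Il12rb2 to Il12rb1 (left) and of Il18rap to Il18r1 (right) in CD25-low (blue) and CD25-high (red) libraries, with lines joining same-numbered libraries and black bars for mean ± SD (n = 3). Lines rise in all 3 pairs on the left, from a mean of 3.19 to 3.91, and fall in all 3 on the right, from -2.58 to -3.00, most steeply for library 1.

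Over the 6 libraries, Il18r1 moved with Hopx (Pearson r of log2 CPM 0.92) and with Il18rap (0.85), while Il12rb2 had r of 0.55 with Il12rb1, 0.48 with Hopx, 0.09 with Il18r1 and -0.40 with Il18rap. These values describe only 6 libraries, which share numbers and preparation and differ in depth. Of 8072 other protein-coding genes with a mean of at least 5 CPM, those most like Il12rb2 were Focad (r = 0.9903, with 67.9 to 107 CPM against 41.5 to 50.4 CPM) and the DNA repair gene Brca2 (0.9888, 117 to 174 against 84.8 to 92.9 CPM). Most like Il12rb1 were Lypla1 (0.9955) and Idh3a (0.9947), most like Il18r1 Tmppe (0.9992) and Slc20a1 (0.9930), most like Il18rap Ctsw (0.9961), the gene of cathepsin W, and Galnt1 (0.9945), and most like Hopx Neb (0.9983) and Grap2 (0.9903). Between 21 and 89 of the 8072 genes reached an r above 0.95 with a given member, so the genes named are not alone in this likeness. How many would reach it by chance with 6 libraries was not tested.

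The neighbours of the members were not called. Il1rl1, which encodes the IL-33 receptor and ends 137 bases before the start of Il18r1, was at 74.1, 25.8 and 43.8 CPM in CD25-high and at 61.3, 66.6 and 77.3 CPM in CD25-low libraries, in order of number (log2 fold change -0.51 ± 0.33, edgeR adjusted p 0.632). Its library 1 was highest among the CD25-high and lowest among the CD25-low libraries, unlike Il18r1. Il23r, the IL-23-specific partner of Il12rb1 and the gene next to Il12rb2, had only 1, 10 and 0 counts in CD25-high and 27, 5 and 72 counts in CD25-low libraries, in order of number (adjusted p 0.434). These few counts vary too much from library to library to show a difference.

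Around the receptors, 10 tested genes of other chains of these receptor families had a median log2 fold change of -0.56, beside 0.01 over all tested genes. Of the 10, 1 fell and 9 did not pass, against 0.501% of all tested genes called lower. With the block 2 fell, against 2.90% of all tested genes. Il6st, which encodes gp130, the signalling chain shared by the IL-6 and IL-27 receptors, averaged 26.2 ± 9.12 CPM in the CD25-high and 101 ± 32.3 CPM in the CD25-low group (SD, n = 3 each; log2 fold change -1.95 ± 0.32, edgeR adjusted p 0.0257). It kept that call only when number 1 of CD25-high or number 3 of CD25-low was left out (highest adjusted p 0.193 in the other fits). Il6ra, the IL-6 binding chain, had 18.9 ± 4.80 against 38.9 ± 10 CPM (-1.04 ± 0.29, adjusted p 0.184, and 0.0448 with the block), and lost the call of the block fit without pair 2 (0.356) or pair 3 (0.108).

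Transcripts of the ligands were scarce. Il12a and Il12b, the subunits of IL-12, had no row in the table, and of 11 listed ligand and binding-protein genes 4 were tested and 0 passed edgeR's adjusted p with or without the block, limma voom or DESeq2 (at an unadjusted p under 0.05, 0 without and 1 with the block). Il18 had 9, 20 and 48 counts in CD25-high and 0, 15 and 0 counts in CD25-low libraries, in order of number (edgeR adjusted p 0.508). Ebi3, a subunit shared by IL-27 and IL-35, had 5.59 ± 2.51 against 3.36 ± 2.09 CPM (SD, n = 3 each; adjusted p 0.718).

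Downstream of the IL-12 receptor, 0 of 19 tested genes passed edgeR's adjusted p without the block, and 1 rose and 1 fell with it (median log2 fold change -0.31). Over all tested genes 0.655% passed without the block, and 1.73% were called higher and 2.90% lower with it. At an unadjusted p under 0.05 without the block, 1 of the 19 was higher and 5 were lower, beside 4.69% and 6.39% of all tested genes. DESeq2 called 1 and limma voom 0, beside 376 of 13931 and 94 of 12987 tested genes in either direction. Jak2, the kinase of the beta 2 chain, averaged 147 ± 20.4 CPM in the CD25-high and 213 ± 23.6 CPM in the CD25-low group (SD, n = 3 each), a log2 fold change of -0.54 ± 0.19 (edgeR adjusted p 0.332, and 0.0671 with the block). Jak2 passed in neither fit, though its CD25-high libraries all lay below its CD25-low ones. Over all tested genes 16.9% did not overlap in either direction. Stat4 had 235 ± 79.0 against 308 ± 26.7 CPM (-0.39 ± 0.24, adjusted p 0.60), with CD25-high library 1 at 325 CPM within the CD25-low range. Tyk2, the kinase of the beta 1 chain, had 24.1 ± 5.24 against 26.1 ± 8.97 CPM (-0.12 ± 0.32, adjusted p 0.929). Cish, a feedback inhibitor of cytokine receptors induced by STAT5, rose with the block (8.43 ± 6.45 against 0.655 ± 0.628 CPM, adjusted p 0.0939 without it and 0.00621 with it), and Ptpn11, the phosphatase SHP-2, fell with it (130 ± 13.8 against 205 ± 20.4 CPM, 0.207 and 0.0324). In fits with the block, Cish lost its call without pair 1 (adjusted p 0.0958), and Ptpn11 without pair 1 (0.0931) or pair 2 (0.181).

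Downstream of the IL-18 receptor, 0 of 25 tested genes passed edgeR's adjusted p without the block and 2 fell with it, both known as modulators of NF-kB signalling (median log2 fold change of the list -0.06). The share called lower with the block was 2.90% over all tested genes. At an unadjusted p under 0.05 without the block, 1 of the 25 was higher and 3 were lower, beside 4.69% and 6.39% of all tested genes. DESeq2 called 2 lower and limma voom 0, beside 376 of 13931 and 94 of 12987 tested genes in either direction. Tnfaip3, the ubiquitin-editing enzyme A20, averaged 22.8 ± 1.45 CPM in the CD25-high and 45.5 ± 2.37 CPM in the CD25-low group (SD, n = 3 each; log2 fold change -1.0 ± 0.21, with edgeR adjusted p-values of 0.0834 without and 0.0143 with the block). Nfkbiz, an atypical member of the IkB family that modulates NF-kB, had 135 ± 15.9 against 214 ± 1.37 CPM (-0.67 ± 0.18, 0.183, and 0.024 with the block). Both lost the call of the block fit when a pair was left out, Tnfaip3 without pair 2 (adjusted p 0.0744) or 3 (0.0558) and Nfkbiz without pair 1 (0.0824) or 3 (0.069). Myd88, the adaptor of the receptor, had 21 ± 4.45 against 23.2 ± 3.54 CPM (-0.15 ± 0.27, adjusted p 0.893), and its groups overlapped.

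Th1 genes downstream of STAT4 and T-bet had a median log2 fold change of 0.84 over 28 tested genes, beside 0.01 over all tested genes. Of the 28, 1 rose and 27 did not pass, against 0.154% of all tested genes called higher. With the block 9 rose and 0 fell, against 1.73% of all tested genes called higher with the block. At an unadjusted p under 0.05 without the block, 11 were higher and 1 was lower, beside 4.69% and 6.39% of all tested genes. DESeq2 called 5 higher and limma voom 1, beside 376 of 13931 and 94 of 12987 tested genes in either direction. Libraries did not overlap for 9 higher and 2 lower genes of the list, beside 962 and 1239 of 12987 tested genes. The 2 lower ones, Tnf (8.11 ± 3.34 against 13 ± 1.23 CPM) and Lta (0.926 ± 0.853 against 3.86 ± 0.288 CPM), passed in neither fit. Prdm1, which encodes Blimp-1, rose in both fits (231 ± 18.7 against 71.2 ± 23.5 CPM, SD, n = 3 each; log2 fold change 1.69 ± 0.25, edgeR adjusted p 0.0159), though it lost the call when number 2 or 3 of CD25-high or number 2 of CD25-low was left out (highest adjusted p 0.121). Havcr2, the inhibitory receptor TIM-3 of Th1 cells, had 213 ± 86.1 against 46.4 ± 30.6 CPM (adjusted p 0.134, and 9.5e-05 with the block), Bhlhe40 113 ± 20.1 against 46.8 ± 19.1 CPM (0.118 and 0.00125) and Runx3, a partner of T-bet, 122 ± 3.12 against 67.2 ± 8.64 CPM (0.0939 and 0.00928, but 0.0614 with the block without pair 2). Ifng had 55.1 ± 38.3 against 19.9 ± 2.95 CPM (1.47 ± 0.43, 0.217, and 0.0731 with the block), with no overlap of its libraries. The lowest CD25-high library, at 24.2 CPM, lay close to the highest CD25-low library, at 22.3 CPM. Within pairs 1, 2 and 3 the log2 differences of Ifng were 2.56, 0.12 and 1.06. With 1 library left out its log2 fold change was 0.76 to 1.84, lowest without CD25-high library 1. Tbx21, which encodes T-bet, had 49.1 ± 9.43 against 35.8 ± 11.2 CPM (0.46 ± 0.28, 0.602, and 0.234 with the block).

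**Figure D4:**
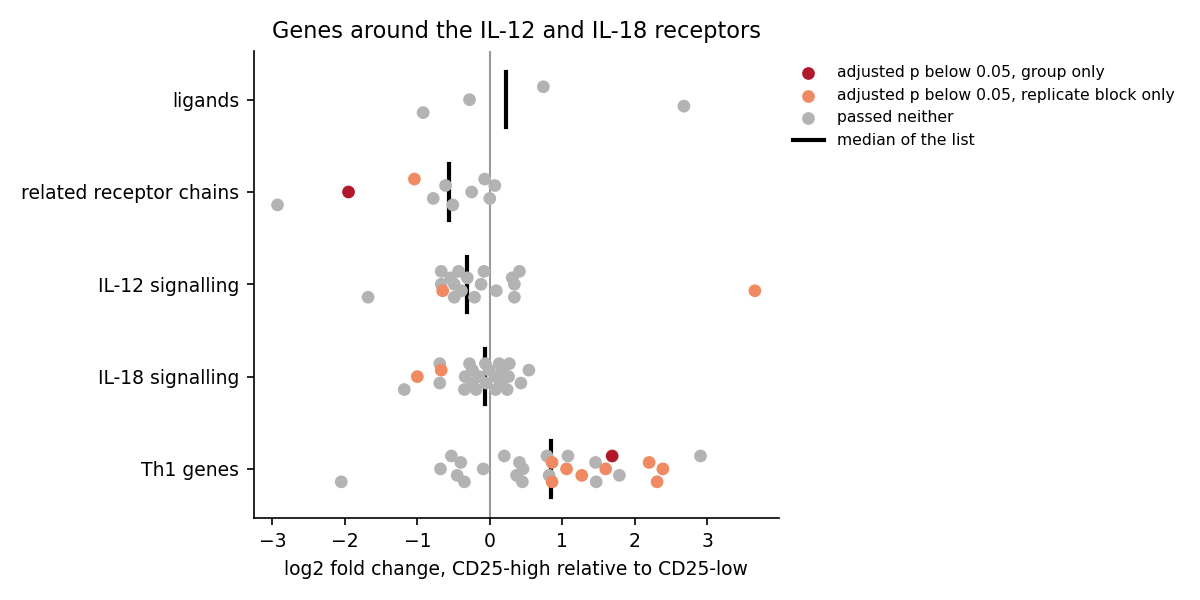
Log2 fold change of CD25-high relative to CD25-low cells (x axis) for each tested gene of 5 lists, without the members: dark red passed with the group alone, orange passed with the replicate block only, and grey passed neither; black bars are list medians. The medians are 0.23 for ligands, -0.56 for related receptor chains, -0.31 and -0.06 for the IL-12 and IL-18 signalling genes and 0.84 for the Th1 genes.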

How the data were processed

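The deposited table holds raw counts, whole numbers of reads per Ensembl gene and library. Libraries were made from total RNA with the NuGEN Ovation kit, per the labels' protocols. The submitters' processing notes name Novoalign, DESeq2, mm10 and hg19 without role or version. How reads were counted, and with which annotation and strand setting, is not given in the sources used here. No row totals fewer than 10 counts. Of 15445 identifiers, 15169 were named through GENCODE M21, which also gave exonic lengths and overlaps.

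CD25-high was compared with CD25-low by edgeR 4.0.16 (R 4.3.3) quasi-likelihood tests with TMM factors, filterByExpr defaults (minimum count 10, minimum total 15), the group as only term, and Benjamini-Hochberg adjustment over 12987 genes; calls are below 0.05. SE was taken as the log2 fold change, without sign, divided by the root of the F statistic. The members and lists were chosen with earlier results of these data known. Named list genes were those passing in either fit, at most 4 per list and direction by p, or else the 2 with the smallest p, plus core pathway genes.

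Numbers were taken to pair libraries. Deviations from group means over the 2000 most variable genes correlated at 0.34, 0.19 and 0.16 within numbers (limit 0.1), and at -0.26 to 0.13 between numbers. CD25-high 2 with CD25-low 3, at 0.13, also passed the limit, so the data set number 1 apart but hardly separate numbers 2 and 3. Libraries within a group differed by more than sampling noise (chi-square over degrees of freedom, 26.0 to 91.6). Alternatives were DESeq2 1.42.0, limma voom (3.58.1), other factors and filters, removal of mitochondrial genes (32.04% to 38.27% of counts), the replicate block, and each library left out.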

Additional observations from a re-analysis of the deposited data

How the results depend on the processing

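Il12rb2 kept its direction under all alternatives and its call under all but 5 of them, each a fit that leaves out 1 library; over the 6 fits of that kind its log2 fold change was 1.0 to 1.44. Il12rb1 and Hopx kept direction and remained uncalled in all 18 alternatives each. Il18r1 ranged from -0.15 to 0.46 and Il18rap from -0.44 to 0.18 with 1 library left out, with reversals at -0.07 and -0.15 for Il18r1 and at 0.18 and 0.04 for Il18rap, none called; the same fits turned Tyk2 (0.04 and 0.08, range -0.37 to 0.08) and Myd88 (0.01, range -0.30 to 0.01), and Tyk2 was also 0.02 with the block without pair 2. In all, 85 of 12987 genes were called, 601 of 12987 with the replicate block and 376 of 13931 with DESeq2. With 1 library left out, 22 of 13474 to 130 of 13515 were called. The block without pair 1, 2 or 3 called 461 of 13420, 486 of 13105 and 536 of 13132. The pathway lists held 4 (ligands), 10 (related receptor chains), 19 (IL-12 signalling), 25 (IL-18 signalling) and 28 (Th1) tested genes. They also held 15 neighbours, some of them among the receptor chains. On these lists 2 were called, 10 with DESeq2, 0 to 2 with 1 library left out and 15 with the replicate block. With the block without pair 1, 2 or 3 these were 13, 13 and 15. The cause was not tested. The block changed no call of a member. With the pairing, the log2 ratios differed by 0.72 (Il12rb2 to Il12rb1) and -0.42 (Il18rap to Il18r1), as without it. Fits with the block and without a pair were added after the data were seen. Low counts limit Il18, Il23r and, in CD25-low library 1, Hopx.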
